A study of Mus musculus with 30 samples.

Results

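The genes examined here are 9 members of the disease-associated microglia program, Apoe, Trem2, Tyrobp, Lpl, Cst7, Itgax, Spp1, Axl and Gpnmb, out of 30952 genes measured. They were taken by symbol from the deposited annotation and kept where it lists the gene as protein-coding. A further name on the same list, Clec7a, is annotated as a polymorphic pseudogene, so its values are given beside the others and it enters no count of members. Spinal cord microglia and astrocytes were isolated by cell sorting from naive mice, from mice with EAE (experimental autoimmune encephalomyelitis, an autoimmune attack on CNS myelin) given vehicle, and from mice with EAE given a RIPK1 kinase inhibitor, and the RNA of each sort was sequenced.

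All mice were female C57BL/6, and the labels name no transgene and no age. The naive group held 4 mice, the EAE-vehicle group 6 mice and the EAE-RIPK1inh group 5 mice, with 1 library per cell type and mouse. EAE was induced with MOG35-55 peptide, which the study's methods for this model give in complete Freund's adjuvant and with pertussis toxin. Dosing began once a mouse showed early clinical signs. The labels list no dosing for naive mice, so disease, adjuvant, toxin and vehicle cannot be told apart in comparisons with them. The inhibitor GSK'547, called RIPK1inh-1 in the study, was given BID by gavage over 3 days, 50 mg/kg each time, while EAE-vehicle mice received Captisol. Microglia were gated as CD11b+ CX3CR1+ cells of intermediate CD45, and astrocytes as GLAST+ cells without CD11b, CD45 or CD140a. The gates name surface proteins that other myeloid cells can share, and the labels name no lineage tracing.

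Microglia that meet myelin debris, amyloid or dying cells are known to lose part of their resting expression program and to switch on a shared group of genes for lipid handling, lysosomal digestion and phagocytosis. TREM2 is a lipid-binding receptor on the cell surface that signals through the adapter TYROBP and the kinase SYK, and the later stage of the switch is known to depend on it. APOE is a lipid carrier that astrocytes supply in the healthy CNS, and it is also a ligand of TREM2.

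Values are log2 FPKM, that is, fragments scaled to the length of a gene's exons and to all mapped fragments, quantile-normalized so that every library has the same set of values from 0 to 15.34. Each value is thus set by the gene's rank in its library. Levels are per length of exon and so can be compared between genes, and a difference of 1 is a doubling of the normalized value wherever the unnamed offset of the scale is small. A gene called "without signal" in a library lay in the lowest stretch of that library's values, where the order follows the table and carries no measurement. A gene passed where limma's Benjamini-Hochberg adjusted p over all genes of the fit was under 0.05. Errors after ± are SD between mice.

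Genes with signal numbered 8710 to 20398 in microglial libraries and 6728 to 22981 in astrocyte libraries. Libraries with under 9000 such genes were microglia naive 4, astrocytes naive 2 and astrocytes EAE-vehicle 1. By the microglial and astrocyte lists, the sorted cells of naive mice matched their labels. The 12 microglial markers averaged 10.66 in naive microglia and 1.70 in naive astrocytes. The 8 astrocyte markers averaged 9.67 in naive astrocytes and 2.17 or less in every microglial library. Other lists set single naive libraries apart. The 5 endothelial markers averaged 4.28 in astrocytes naive 4 and 0.19 to 0.66 in the other naive astrocytes. The 9 monocyte and neutrophil markers averaged 5.57 in microglia naive 3 and 1.95 to 3.41 in the other naive microglia. In EAE-vehicle astrocyte libraries the astrocyte markers averaged 7.81 to 9.06 and the 6 oligodendrocyte markers 5.41 to 9.01, against 5.05 to 6.30 in naive astrocytes. The oligodendrocyte mean was above the astrocyte mean in EAE-vehicle 3 (8.96 against 8.51), 5 (8.42 against 8.41) and 6 (9.01 against 8.20), so by these lists the EAE astrocyte sorts matched their label less clearly. In bulk libraries, fewer cells of a type and less RNA per cell cannot be told apart.

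The members lie on 6 chromosomes of GRCm38, and 4 of the 9 are on chromosome 7. Their exon lengths in the annotation run from 667 bases for Tyrobp to 10478 bases for Lpl. Spp1 is the only member the annotation marks as confounded with another gene, so reads may have been shared there. That mark is common, and 15717 of all 30952 genes carry it. RefSeq start sites with 250 bases upstream were at hand for 8 of the 10 names (12 windows), without Tyrobp and Lpl. Both strands of each window were searched for TGANTCA (AP-1), GAGGAAGT (PU.1), CACGTG (E-box) and GGGANTTCC (NF-kB). The 3 windows with a match are shown because they belong to a member that rose, a member that fell and a member that moved most in the other cell type. Capitals mark the match, and each of the 3 windows holds 1 match, so none overlaps another.
Itgax, chr7:128129300-128129549, GRCm38.p6, + strand, AP-1 letters: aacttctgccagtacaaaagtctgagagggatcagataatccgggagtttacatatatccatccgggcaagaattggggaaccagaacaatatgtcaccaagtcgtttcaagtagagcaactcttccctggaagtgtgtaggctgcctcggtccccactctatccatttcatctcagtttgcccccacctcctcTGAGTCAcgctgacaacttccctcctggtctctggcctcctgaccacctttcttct
Trem2, chr17:48346151-48346400, GRCm38.p6, + strand, AP-1 letters: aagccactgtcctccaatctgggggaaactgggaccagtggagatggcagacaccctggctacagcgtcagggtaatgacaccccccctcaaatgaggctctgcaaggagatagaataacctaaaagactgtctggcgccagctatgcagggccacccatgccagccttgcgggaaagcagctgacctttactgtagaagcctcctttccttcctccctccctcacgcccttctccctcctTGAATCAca
Spp1, chr5:104434861-104435110, GRCm38.p6, + strand, PU.1 letters: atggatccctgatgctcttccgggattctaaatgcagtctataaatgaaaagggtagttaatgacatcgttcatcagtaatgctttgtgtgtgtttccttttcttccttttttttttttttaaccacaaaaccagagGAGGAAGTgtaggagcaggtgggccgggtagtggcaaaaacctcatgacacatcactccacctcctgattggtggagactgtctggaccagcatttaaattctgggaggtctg
The Itgax match starts at base -56 from the RefSeq start site, the Trem2 match at -9 and the Spp1 match at -113. Among 32851 promoters of the same length, 6.75% held the AP-1 letters, 2.44% the PU.1 letters, 6.02% the E-box letters and 1.43% the NF-kB letters. The search letters TGANTCA leave the middle base open, and they were met as TGAGTCA before Itgax, which rose in EAE microglia. Before Trem2, which fell, they were met as TGAATCA, and binding of AP-1 to either stretch was not tested.

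In naive microglia several of these genes were already high. Apoe, Tyrobp and Trem2 had mean levels of 11.18 ± 0.62, 10.93 ± 0.21 and 10.65 ± 0.25 (n = 4 mice), and their ranges overlapped. Trem2, the lowest of the 3, stood 4.54 above the next gene, with no overlap. Spp1, Clec7a and Lpl followed at 6.10 ± 1.08, 6.10 ± 1.01 and 5.02 ± 0.52, which overlapped between neighbours. Axl at 3.48 ± 0.55 and Cst7 at 2.80 ± 1.82 came next, and Itgax at 1.07 ± 0.70 and Gpnmb at 0.40 ± 0.39 were near the bottom of the scale.

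**Figure D1:**
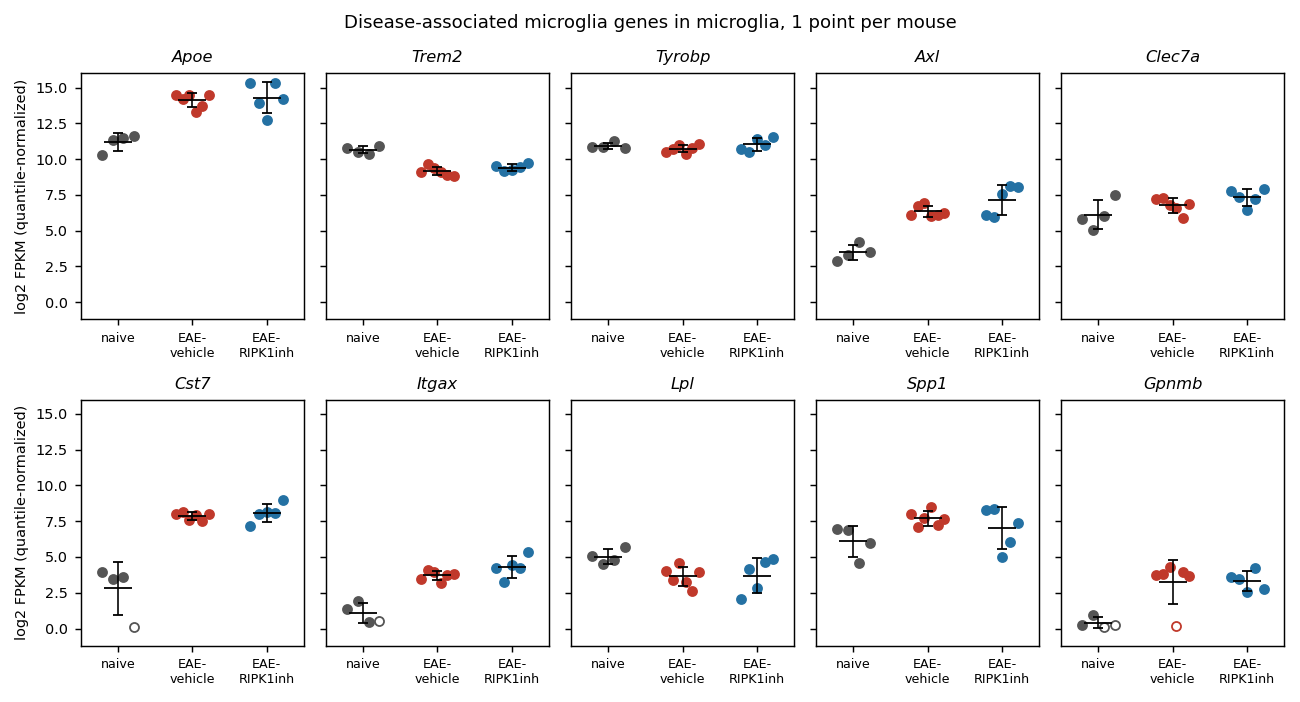
Levels of the 9 members and Clec7a in sorted microglia, in log2 FPKM on the vertical axis, with 1 point per mouse in the naive, EAE-vehicle and EAE-RIPK1inh groups, black lines for mean ± SD and open points for libraries without signal. Apoe, Axl, Cst7 and Itgax lie higher in all 6 EAE-vehicle mice than in the 4 naive mice, Trem2 lies lower, and the EAE groups overlap for all 10 genes.

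EAE changed most of these genes in microglia. Of the 9 members, 5 rose (Cst7, Apoe, Gpnmb, Axl and Itgax), 1 fell (Trem2) and 3 did not pass (Tyrobp, Lpl and Spp1), where 3.92% of all 28958 genes passed, 2.37% upward and 1.56% downward. The median difference of the members was 2.64 on the log2 scale, and that of all genes was -0.02. By the study's cutoff of a fold over 1.5 and an unadjusted p under 0.05, 6 members were higher and 2 lower, where 6.13% of all genes were higher by it and 5.86% lower. Wherever this cutoff is used here, the p is that of the unpaired limma fit, while the study names a paired t test. Microglial and infiltrating myeloid markers moved in the same libraries, as described with the marker lists further on.

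Among the receptor and adapter genes, Trem2 fell. It stood at 10.79, 10.52, 10.38 and 10.92 in the naive mice, and at a lowest of 8.85, a median of 9.10 and a highest of 9.66 in the 6 EAE-vehicle mice. Every EAE-vehicle mouse lay below every naive mouse. Trem2 fell by 1.48 (SE 0.18), which is 2.80-fold lower, with a limma adjusted p of 1.83e-04 and an exact two-sided permutation p of 0.00476, the smallest that the 210 splits of 10 mice allow. Even so, Trem2 remained the third highest of the 10 genes in EAE-vehicle microglia, at 9.17 ± 0.30.

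Tyrobp, the adapter that TREM2 needs, lay between 10.79 and 11.25 in naive mice and between 10.34 and 11.04 in EAE-vehicle mice. The difference of -0.20 had a 95% interval from -0.66 to 0.25 and a limma adjusted p of 0.764. So the receptor and its adapter had a difference of -1.48 and -0.20 in the same mice, though the contrast between the genes was not tested.

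AXL is a receptor tyrosine kinase that binds phosphatidylserine on dying cells through the bridging ligand GAS6. Axl stood at 2.89, 3.31, 4.20 and 3.53 in naive microglia, and at a lowest of 6.03, a median of 6.17 and a highest of 6.95 in EAE-vehicle. The groups were separate, and Axl rose by 2.87 (SE 0.44, limma adjusted p = 0.00122, exact permutation p = 0.00476). Itgax, which encodes the integrin chain CD11c, stood at 1.34, 1.93 and 0.49 in 3 naive mice and was without signal in naive 4. It ranged from 3.15 to 4.08 in EAE-vehicle again with no overlap, and rose by 2.64 (SE 0.39, limma adjusted p = 9.66e-04).

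Clec7a encodes Dectin-1, a receptor for fungal glucans that is widely used to mark reactive microglia. Its naive levels were 5.81, 5.06, 6.05 and 7.48, and its EAE-vehicle levels had a lowest of 5.89, a median of 6.80 and a highest of 7.28. The naive mouse at 7.48 was above every EAE-vehicle mouse, and the difference of 0.66 (95% interval -0.24 to 1.57) did not pass, with a limma adjusted p of 0.536. That mouse gave microglia naive 4, the library of 8710 genes with signal. The difference was 1.12 without it (limma adjusted p = 0.122) and 0.32 without naive 2 (0.733).

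Of the lipid genes, Apoe rose and Lpl did not pass. Apoe stood at 10.27, 11.32, 11.48 and 11.64 in naive microglia, and at a lowest of 13.32, a median of 14.34 and a highest of 14.48 in EAE-vehicle. The ranges were far apart, and Apoe rose by 2.94 (SE 0.47, 7.67-fold) with a limma adjusted p of 0.00173. In rank terms, Apoe was the 21st to 43rd highest gene of each naive library and the 2nd to 7th of each EAE-vehicle library. Quantile normalization ties every value to its rank, also at the top (15.34 for the first rank, 14.48 for the second, 14.20 for the third), so the fold stands for a move in rank and not for a measured ratio.

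Lpl encodes the lipase that releases fatty acids from lipoproteins. It stood at 5.09, 4.50, 4.77 and 5.72 in naive microglia and at 4.04, 3.40, 4.59, 3.27, 2.64 and 3.94 in EAE-vehicle. A single EAE-vehicle mouse, at 4.59, reached into the naive range. The difference of -1.37 (95% interval -2.53 to -0.22) did not pass across all genes (limma adjusted p = 0.235), and the exact permutation p over 210 splits was 0.0190.

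Cst7 had the largest difference of the members. It encodes cystatin F, an inhibitor of cysteine proteases that acts in the lysosome on cathepsin C among others. Naive levels were 3.98, 3.49 and 3.63, with no signal in naive 4, and EAE-vehicle levels ran from 7.49 to 8.13 with a median of 7.97. Cst7 rose by 5.06 (SE 0.60, limma adjusted p = 1.60e-04), and by 4.16 when the naive mouse without signal was left out. In EAE-vehicle microglia Cst7 was the fourth of the 10 genes, at 7.86 ± 0.26.

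Of the secreted and membrane glycoproteins, Gpnmb rose and Spp1 did not pass. Spp1 encodes osteopontin, a secreted ligand of CD44 and of integrins, and stood at 6.93, 6.87, 4.61 and 6.00 in naive microglia. Its EAE-vehicle levels had a lowest of 7.08, a median of 7.70 and a highest of 8.51. The groups did not overlap and the exact permutation p was 0.00476, but the difference of 1.59 (95% interval 0.24 to 2.95) did not pass across all genes, with a limma adjusted p of 0.244. Gpnmb, a transmembrane glycoprotein of lysosomes and phagocytes, was 0.24 and 0.98 in the naive mice with signal and without signal in the other two. In EAE-vehicle it ran from 3.64 to 4.32 in 5 mice and was without signal in EAE-vehicle 4. It rose by 2.87 (SE 0.67, limma adjusted p = 0.0248), a call that was lost when naive 1, 3 or 4 or EAE-vehicle 1, 2, 3, 5 or 6 was left out, which are 8 of the 15 fits, with a limma adjusted p of up to 0.0643.

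**Figure D2:**
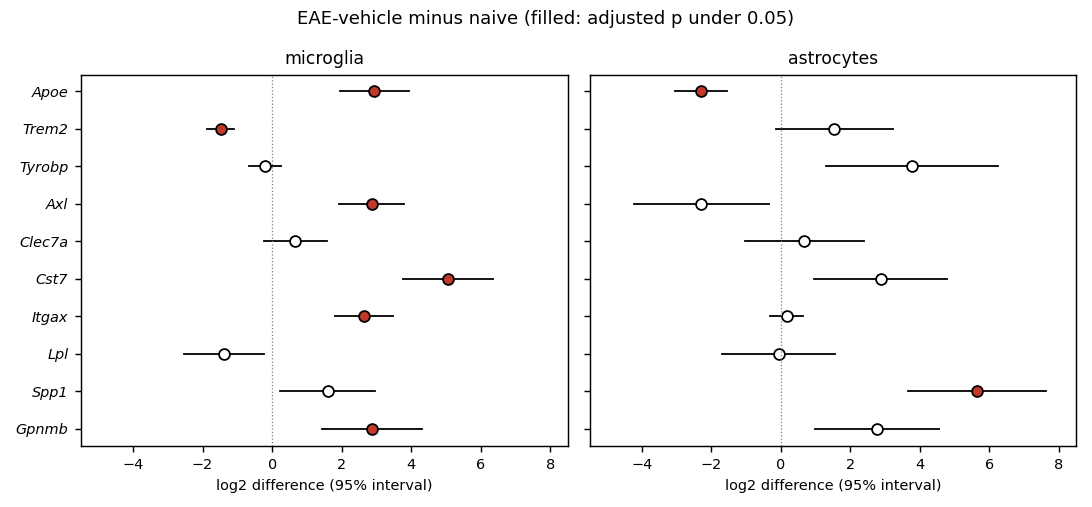
Difference between EAE-vehicle and naive mice in log2 FPKM for each gene in microglia (left) and astrocytes (right), with points for the limma estimate, bars for the 95% interval and filled points for an adjusted p under 0.05. Apoe and Axl lie to the right of 0 in microglia (2.94 and 2.87) and to the left in astrocytes (-2.30 and -2.29).

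Around these genes, the rest of the program moved in part. Of 22 other disease-associated genes, 7 rose and 2 fell in EAE-vehicle microglia, with a median difference of 0.90. The largest rises were in Ch25h, an enzyme that makes 25-hydroxycholesterol, from 1.39 ± 1.58 to 4.80 ± 0.91, in Cd52, a small surface glycoprotein, from 8.18 ± 0.39 to 10.41 ± 0.22, and in Cstb, a cysteine protease inhibitor, from 6.69 ± 0.68 to 8.65 ± 0.46. B2m and H2-D1, which encode MHC class I chains, rose by 1.27 and 1.88, and Fth1, a ferritin chain that stores iron, and Cd63, a lysosomal membrane protein, rose by 1.17 and 1.37. The falls were in Serpine2, a protease inhibitor, from 9.25 ± 0.19 to 6.66 ± 0.49, and in Cd9, a tetraspanin, from 10.22 ± 0.29 to 9.04 ± 0.46. This list was chosen with earlier results known, so its counts are a description.

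Of 8 genes that act after TREM2 and TYROBP, none rose and 1 fell, with a median difference of -0.37. The fall was in Syk, the kinase that TYROBP recruits, from 5.08 ± 0.72 to 3.01 ± 0.42 (limma adjusted p = 0.00951). Hcst, which encodes the alternative adapter DAP10, had a difference of 1.26 and did not pass (limma adjusted p = 0.173). Among 18 ligands, partners and receptors of the members, 1 rose and none fell, with a median of 0.19. Ctsc, the cathepsin C that cystatin F inhibits, rose from 9.53 ± 0.31 to 10.87 ± 0.50 (limma adjusted p = 0.0220). Differences that did not pass included 2.07 for Cd44, a receptor of osteopontin (limma adjusted p = 0.130), 0.83 for Gas6, the ligand of AXL (0.162), and -0.84 for Mertk, a receptor of the AXL family (0.0518).

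Markers of resting microglia and of infiltrating cells moved in the same libraries. Of 12 microglial markers, 10 fell and none rose, and their summed linear level was 46802 to 49907 in naive, 11340 to 14630 in EAE-vehicle and 12504 to 21313 in EAE-RIPK1inh mice. The falls were largest in Fcrls, an Fc receptor-like gene, from 9.36 ± 0.38 to 3.64 ± 1.13, in P2ry12, the purinergic receptor of resting microglia, from 12.72 ± 0.48 to 8.56 ± 0.53, and in the receptor gene Gpr34, from 10.97 ± 0.84 to 6.83 ± 0.77. Of 9 monocyte and neutrophil markers, 2 rose, namely Fn1 (fibronectin) from 0.26 ± 0.34 to 5.39 ± 0.75 and Arg1 (arginase) from 0.24 ± 0.34 to 4.66 ± 1.60. The summed level of those 9 ran from 237 to 13466 in naive, from 340 to 9847 in EAE-vehicle and from 228 to 29289 in EAE-RIPK1inh mice, and Ccr2 was without signal in every naive library. Their median difference between EAE-vehicle and naive microglia was 1.84, with 7 of 9 above 0. By the study's cutoff 4 of the 9 were higher and none lower, where 6.13% of all genes were higher. The 5 dendritic cell markers in the table summed to between 5.78 and 8.53 in microglia, near the level of 5 genes at 0. Of 8 astrocyte markers Aldh1l1, a folate enzyme, rose from 0.32 ± 0.28 to 2.87 ± 0.82, of 5 endothelial markers Pecam1, the adhesion molecule CD31, fell from 3.15 ± 1.12 to 0.50 ± 0.40, and none of the T cell, oligodendrocyte, OPC, dendritic cell or border-associated macrophage markers passed. The part of other myeloid cells in the members' differences was not tested.

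**Figure D3:**
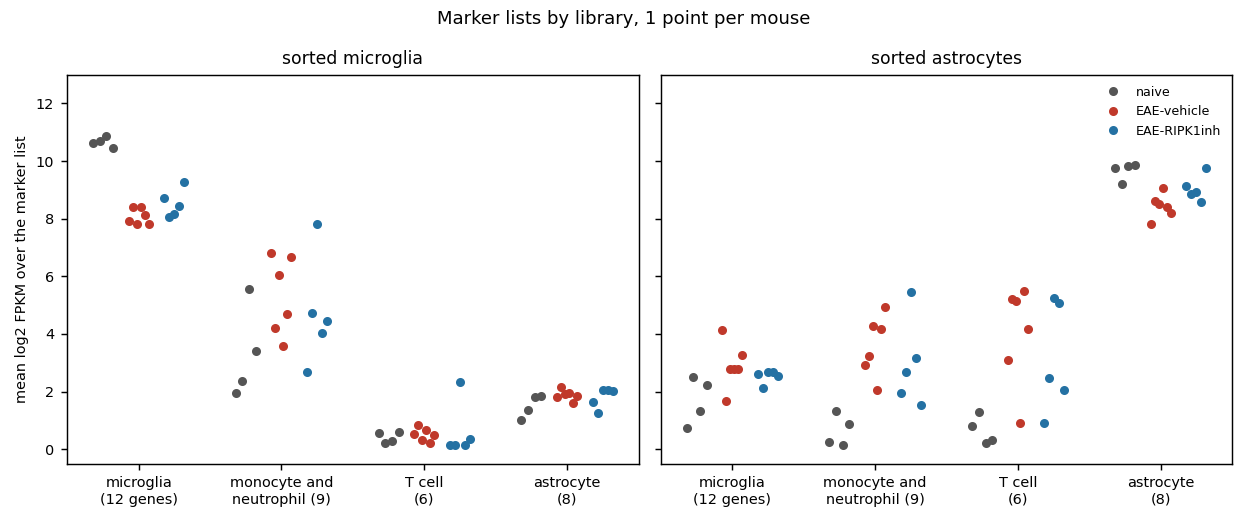
Mean log2 FPKM over each marker list (horizontal axis) in every library of sorted microglia (left) and sorted astrocytes (right), with 1 point per mouse coloured by group. Microglial markers in microglia average 10.66 in naive and 8.08 in EAE-vehicle mice, and T cell markers in astrocytes average 0.66 in naive and 4.00 in EAE-vehicle mice.

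The genes that followed the list most closely were sought among 5692 protein-coding genes with a mean of at least 3 in microglia. By Pearson r with the mean of the 10 names over 15 microglial libraries, the closest were Cd40 (r = 0.96), Acod1 (0.95), Slamf8 (0.94), Cybb (0.94) and Fcgr4 (0.94). These values describe libraries that share a group, and within groups r was 0.64, 0.47, 0.50, 0.48 and 0.39. The mean of the names itself rose in EAE, so a high r picks genes that rose too. Cd40, Acod1 and Cybb also reached the mean of 3 only through the EAE groups. The levels that follow describe the picked genes and are no separate result. Cd40, a costimulatory receptor, went from 0.03 ± 0.04 in naive to 4.42 ± 0.82 in EAE-vehicle and 4.65 ± 0.19 in EAE-RIPK1inh microglia. Acod1, the enzyme that makes itaconate, went from 0.23 ± 0.27 to 4.91 ± 0.50 and 5.16 ± 0.71. Fcgr4, an activating Fc receptor, went from 4.02 ± 0.20 to 8.56 ± 0.14 and 8.74 ± 0.37.

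RIPK1 inhibition was then compared with vehicle in EAE microglia, to ask whether the drug moved the program. None of the 9 members passed, with a smallest unadjusted p of 0.0731 for Axl and a limma adjusted p of 0.930 or more for each, where 0.00345% of all 28958 genes passed, which is 1 gene, and 832 genes had an unadjusted p under 0.05. By the study's cutoff none of the 9 was called either, where 1.76% of all genes were. The estimate was above 0 for 8 of the 9, with a median of 0.21 for the members and -0.02 for all genes, and the EAE groups overlapped for every member. None of the 22 other disease-associated genes, the 8 signaling genes or the 18 ligands, partners and receptors passed either, with medians of 0.07, 0.26 and 0.02, though by the study's cutoff 1, 2 and 1 of them were higher and none lower. The 12 microglial markers had a median of 0.40 and the 9 monocyte and neutrophil markers of -0.53, again with none passing, and 2 of the 12 and none of the 9 were higher by the study's cutoff.

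The intervals show what size of difference 5 and 6 mice leave possible. Trem2 stood at 9.52, 9.14, 9.21, 9.47 and 9.70 with the inhibitor, a difference of 0.24 with a 95% interval from -0.12 to 0.60. Tyrobp stood at 10.73, 10.46, 11.38, 10.97 and 11.57, a difference of 0.29 with an interval from -0.13 to 0.72. For these receptor-complex genes, a difference of 1 log2 unit in either direction lay outside the interval.

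Axl had the largest estimate. It stood at 6.06, 5.97, 7.54, 8.11 and 8.03 with the inhibitor, so 3 mice lay above the highest vehicle mouse at 6.95 and the other 2 lay near the lowest at 6.03. The difference of 0.79 had an interval from -0.08 to 1.67, and the exact permutation p over 462 splits was 0.145. Itgax was 4.25, 3.25, 4.41, 4.25 and 5.37, a difference of 0.60 with an interval from -0.18 to 1.38. Clec7a was 7.80, 7.38, 6.42, 7.20 and 7.89, a difference of 0.58 with an interval from -0.27 to 1.42.

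Apoe stood at 15.34, 13.93, 12.70, 15.34 and 14.20 with the inhibitor, and it was the highest gene of the whole library in 2 of the 5 mice. The difference from vehicle was 0.19, with a 95% interval from -0.75 to 1.13. Spp1 was spread widest, at 8.29, 8.33, 5.00, 6.08 and 7.37, with a difference of -0.69 and an interval from -1.96 to 0.59. Without EAE-RIPK1inh 3, at 5.00, the Spp1 difference was -0.18. That library had the highest summed monocyte and neutrophil markers in microglia, 29289. EAE-vehicle 3 and 1 had sums of 9847 and 7171 with Spp1 at 7.73 and 7.98, and EAE-RIPK1inh 4 had 380 with Spp1 at 6.08. A link between these sums and Spp1 was not tested. Cst7 at 7.16 to 9.00, Gpnmb at 2.55 to 4.23 and Lpl at 2.04 to 4.88 had differences of 0.21, 0.05 and 0.05, with intervals each over 2 log2 units wide, from -1.03 to 1.13 for Lpl.

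The mice of the inhibitor group did not sit together. EAE-RIPK1inh 5 was the highest of its group for 5 of the 9 members and averaged 8.09 over them, while EAE-RIPK1inh 3 averaged 7.08. In the EAE-vehicle group, EAE-vehicle 4 was the lowest for 5 of the 9 and averaged 6.87, against 7.77 in EAE-vehicle 3. The mean over the members was 5.74 ± 0.21 in naive, 7.39 ± 0.32 in EAE-vehicle and 7.59 ± 0.41 in EAE-RIPK1inh microglia.

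**Figure D4:**
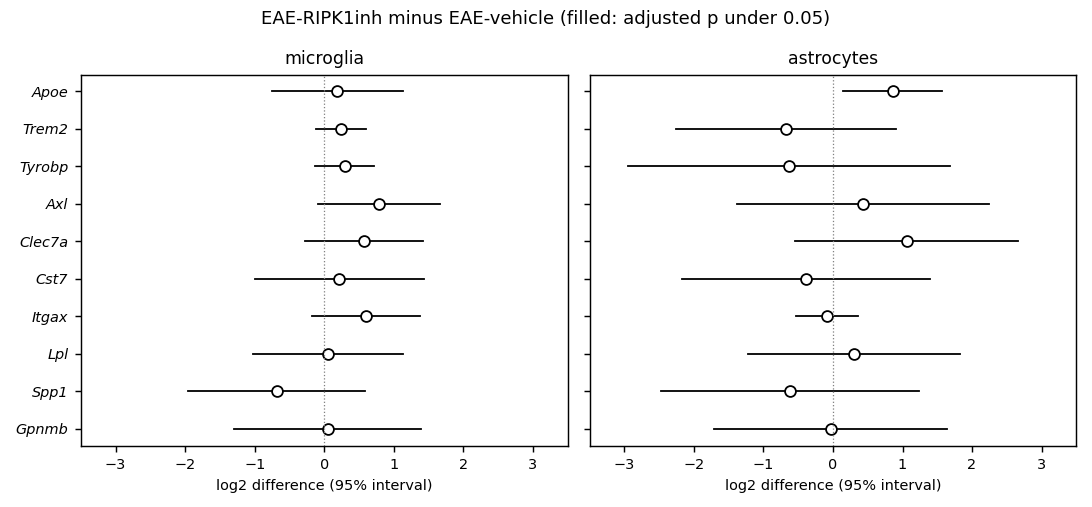
Difference between EAE-RIPK1inh and EAE-vehicle mice in log2 FPKM for each gene in microglia (left) and astrocytes (right), with points for the limma estimate and bars for the 95% interval. No point is filled, since no adjusted p was under 0.05, and the interval of Apoe in astrocytes (0.15 to 1.57) lies above 0.

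In inhibitor-treated against naive microglia, 5 of the 9 members rose and 1 fell, where 2.73% of all genes passed, 1.81% upward and 0.922% downward. Cst7 rose by 5.28, Axl by 3.66, Itgax by 3.23, Apoe by 3.13 and Gpnmb by 2.92, with limma adjusted p from 2.04e-04 for Cst7 to 0.0388 for Gpnmb, and Trem2 fell by 1.24 (limma adjusted p = 0.00167). Both comparisons use the same 4 naive libraries. The Gpnmb call held only without EAE-vehicle 3 or EAE-vehicle 4, and leaving out any of the other 13 microglial libraries ended it, with a limma adjusted p of up to 0.0986. Clec7a had a difference of 1.24 here (limma adjusted p = 0.217), and of 1.70 without microglia naive 4, where the limma adjusted p was 0.0275.

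Sorted astrocytes were then examined for the same genes, as cells in which APOE and AXL are normally made while the receptor complex of microglia is not. In naive astrocytes Apoe was at 13.92 ± 0.71 and Axl at 6.20 ± 0.36 (n = 4), and Trem2, Lpl, Tyrobp, Gpnmb, Itgax, Spp1 and Cst7 had means of 1.67 or less. Spp1 and Clec7a were without signal in all 4 naive libraries, and Tyrobp, Cst7, Itgax and Gpnmb in 3 of 4.

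**Figure D5:**
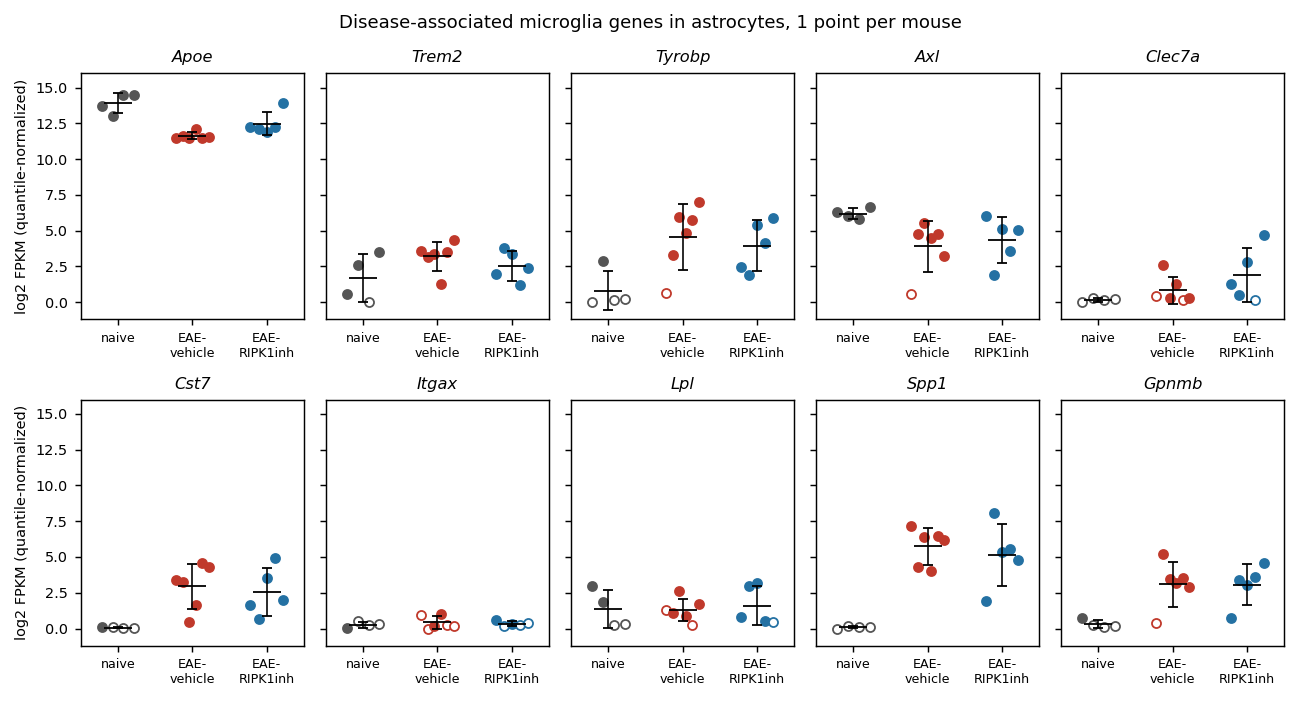
Levels of the 9 members and Clec7a in sorted astrocytes, in log2 FPKM on the vertical axis, with 1 point per mouse in the naive, EAE-vehicle and EAE-RIPK1inh groups, black lines for mean ± SD and open points for libraries without signal. Apoe is lower in all 6 EAE-vehicle mice (11.48 to 12.10) than in the 4 naive mice (13.01 to 14.48), and Spp1 has signal in each EAE library and in none of the naive ones.

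In EAE, astrocyte Apoe fell and astrocyte Spp1 rose, and the other 7 members did not pass, where 0.579% of all 30718 genes passed, 0.342% upward and 0.238% downward. By the study's cutoff 4 members were higher and 2 lower, where 2.69% of all genes were higher by it and 4.01% lower. The median difference was 1.54 for the members and 0.03 for all genes.

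Apoe stood at 13.71, 13.01, 14.48 and 14.48 in naive astrocytes and at a lowest of 11.48, a median of 11.52 and a highest of 12.10 in EAE-vehicle. No mouse overlapped, and Apoe fell by 2.30 (SE 0.36, limma adjusted p = 0.00602, exact permutation p = 0.00476). In rank it went from the 2nd to 9th highest gene of a library to the 16th to 23rd. Spp1 was without signal in the 4 naive libraries and stood at 7.16, 4.28, 6.43, 4.01, 6.43 and 6.19 in EAE-vehicle (limma adjusted p = 0.00901). No fold is given, because nothing was measured in the naive group. The Spp1 call was lost when 9 was added to each FPKM before the logarithm (limma adjusted p = 0.119) and with the replicate number as a block (0.147).

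Axl stood at 6.32, 6.00, 5.82 and 6.64 in naive astrocytes and at 4.76, 5.56, 4.49, 4.80 and 3.26 in 5 EAE-vehicle mice, with no signal in EAE-vehicle 1. All EAE-vehicle mice lay below all naive mice, but the difference of -2.29 (95% interval -4.22 to -0.35) did not pass across all genes, with a limma adjusted p of 0.531, and its exact permutation p was 0.0190. Cst7 was at 0.45 to 4.55 in EAE-vehicle astrocytes and at 0.12 in naive 1, the only naive astrocyte library with signal. Its values in naive 2, 3 and 4 carry no measurement, in stretches that reach up to 1.69, 0.48 and 0.81. Whether the groups overlap therefore cannot be judged. The Cst7 difference of 2.87 had a limma adjusted p of 0.276 and an exact permutation p of 0.00952, both resting on those naive values.

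Tyrobp showed the widest spread. It stood at 0, 2.85, 0.18 and 0.22 in naive astrocytes, with signal only in the mouse at 2.85, and at 0.62 to 7.00 with a median of 5.30 in EAE-vehicle. The difference was 3.77 (limma adjusted p = 0.264), and without the astrocyte libraries of under 9000 genes with signal it was 5.25 with a limma adjusted p of 0.0306. Gpnmb had a difference of 2.78 (limma adjusted p = 0.247) and Trem2 of 1.54 (0.807), while Lpl and Itgax had differences of -0.06 and 0.17.

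Of the 22 other disease-associated genes, 5 rose and 1 fell in EAE astrocytes, with a median difference of 0.07. H2-D1 rose by 4.46 and B2m by 2.92, and Cd52 and Lyz2, which myeloid cells express strongly, rose by 5.72 and 5.44. Fth1 rose by 1.70 and Serpine2 fell by 1.36. None of the 8 signaling genes and none of the 18 ligands, partners and receptors passed, with medians of 1.99 and -0.41. By the study's cutoff 6 of the 8 were higher and none lower, and 3 of the 18 were higher and 7 lower. Of the 22 other disease-associated genes, 7 were higher and 3 lower by it.

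Markers of other cells were read in the same sorts. Of 12 microglial markers, none passed in either direction, and their summed linear level ran from 61.7 to 130 in naive, from 149 to 566 in EAE-vehicle and from 99.3 to 278 in EAE-RIPK1inh astrocytes. The 9 monocyte and neutrophil markers summed to 9.97 to 32.9 in naive, 91.6 to 610 in EAE-vehicle and 54.8 to 2408 in EAE-RIPK1inh astrocytes, the 8 of them that could be tested did not pass, and Ly6g was without signal throughout. The 6 T cell markers summed to 6.98 to 17.2, 14.5 to 486 and 12.1 to 477, with none passing, and Cd3d and Lck were without signal in the naive libraries. Of 6 oligodendrocyte markers, 1 rose, and they summed to 1615 to 2679, 2886 to 12948 and 3595 to 8381. By the study's cutoff 6 of the 8 tested monocyte and neutrophil markers and 4 of the 6 T cell markers were higher in EAE-vehicle. So were 4 of the 6 oligodendrocyte and 2 of the 12 microglial markers, where 2.69% of all genes were higher. None of these 4 lists had a lower marker by it. Median differences were 3.31 for monocyte and neutrophil, 3.63 for T cell and 0.93 for microglial markers. Of the 8 astrocyte markers, Gfap, the filament gene of reactive astrocytes, rose by 2.47, and Gja1, Slc1a3 and Slc7a10 fell. The median difference was -1.46 over the 8 astrocyte markers, with 7 of 8 below 0, and 2.64 over the 6 oligodendrocyte markers, in the libraries where Apoe and Axl had differences of -2.30 and -2.29. The part of other cells in the Apoe, Axl, Spp1, Cst7, Tyrobp, Gpnmb, Cd52 and Lyz2 values of astrocytes was not tested.

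With the inhibitor, no member passed in astrocytes, where 0% of all 30718 genes passed and 998 had an unadjusted p under 0.05. Apoe stood at 12.23, 12.10, 11.93, 12.23 and 13.93, against 11.48 to 12.10 with vehicle. Its difference of 0.86 (95% interval 0.15 to 1.57) had a limma adjusted p of 0.840 and an exact permutation p of 0.00866 over 462 splits, and it was the only member to meet the study's cutoff, where 3.02% of all genes did. EAE-RIPK1inh 5, at 13.93, stood far above the other 4, and without it the difference was 0.50, under the 1.5-fold cutoff. In the same comparison the 8 astrocyte markers had a median of 0.68, with 7 of 8 above 0 and 2 higher by the study's cutoff. Medians were -0.90 for monocyte and neutrophil, -0.84 for T cell, -0.42 for microglial and -0.39 for oligodendrocyte markers. No marker of these lists passed. Astrocyte markers averaged 9.76 in EAE-RIPK1inh 5 and 8.58 to 9.12 in the rest of its group. A link between these markers and Apoe was not tested. For the other 8 members the estimates ran from -0.68 for Trem2 to 0.43 for Axl, with intervals that crossed 0. Against naive mice, no member passed in inhibitor-treated astrocytes, where 0.130% of all genes did, and Apoe had a difference of -1.44 (limma adjusted p = 0.296) and Spp1 of 5.02 (0.0658). The Spp1 value rests on naive libraries without signal, so it is no measured fold.

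The cell types were compared in fits of all 30 libraries. The 15 mice gave both cell types, but the labels do not say which libraries came from 1 mouse, so the fits treat all libraries as independent. In naive mice, 7 of 9 members passed, 5 higher and 2 lower in microglia, where 11.9% of all genes did, 5.94% higher and 5.93% lower. Trem2, Tyrobp, Lpl, Cst7 and Spp1 were the higher ones, by 8.98 for Trem2 and 10.12 for Tyrobp, while Apoe was 2.75 log2 units lower in microglia than in astrocytes and Axl 2.71 units lower. In EAE-vehicle mice 7 of 9 passed again, where 13.8% of all genes did, and all 7 were higher in microglia, as were 7.89% of all genes. Apoe was now higher in microglia by 2.49 (limma adjusted p = 1.75e-05) and Axl by 2.44 (limma adjusted p = 0.00988). Spp1 at 1.95 (0.0757) and Gpnmb at 0.17 (0.953) did not pass. In EAE-RIPK1inh mice 7 of 9 passed, all higher in microglia, where 13.0% of all genes did and 7.18% were higher, with Apoe at 1.82 and Axl at 2.80. The naive Axl call (limma adjusted p = 0.0223) and the naive Cst7 call (0.0298) were each lost when some libraries were left out. These were astrocytes naive 1 or 4 or microglia naive 1 or 2 for Axl (up to 0.0698) and any astrocyte naive library or microglia naive 1, 2 or 3 for Cst7 (up to 0.114). With the replicate number taken as the mouse, 6 of 9 passed in naive mice, without Cst7 (limma adjusted p = 0.0501), and 7 and 7 in EAE-vehicle and EAE-RIPK1inh mice. The Spp1 difference in EAE-vehicle mice passed without astrocytes EAE-vehicle 1 (0.0450) or astrocytes EAE-RIPK1inh 1 (0.0302) or 2 (0.0384), and in EAE-RIPK1inh mice without astrocytes EAE-RIPK1inh 2 (0.0175). The Lpl call in EAE-RIPK1inh mice was lost without astrocytes EAE-RIPK1inh 1, 4 or 5 or microglia EAE-RIPK1inh 2, 4 or 5, with a limma adjusted p of up to 0.0930.

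The EAE response itself differed between the cell types for 3 of 9 members, where 0.982% of all genes did, 0.604% with the larger response in microglia. The response was larger in microglia than in astrocytes by 5.24 for Apoe (SE 0.60, limma adjusted p = 2.37e-05), by 5.15 for Axl (SE 1.03, 0.00942) and by 2.47 for Itgax (SE 0.52, 0.0132). The Itgax call was lost with libraries centred (limma adjusted p = 0.106) and with quality weights (0.128), and Itgax was without signal in 3 of 4 naive and 4 of 6 EAE-vehicle astrocyte libraries. Apoe and Axl thus exchanged the order of the cell types, since both were higher in astrocytes of naive mice and in microglia of EAE mice. For Apoe the 4 group means were 13.92 and 11.62 in astrocytes and 11.18 and 14.11 in microglia. Trem2 (-3.02, limma adjusted p = 0.0575), Spp1 (-4.05, 0.0884) and Tyrobp (-3.98, 0.125) had responses that were lower in microglia and did not pass. Spp1 was without signal in all 4 naive astrocyte libraries and Tyrobp in 3 of them. The Spp1 and Tyrobp values therefore rest in part on values that carry no measurement. The response to the inhibitor differed between the cell types for none of the 9, where 0% of all genes passed and 1066 had an unadjusted p under 0.05 by limma.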

How the data were processed

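RNA of microglia and astrocytes from 15 mice was sequenced after oligo(dT) selection and Tn5 fragmentation, 30 libraries in all, and the labels gave the cell type, the treatment group and the replicate of each. The authors quantified the reads as FPKM in OmicSoft Array Studio and deposited them as log2 values, quantile-normalized over all libraries. The aligner and the offset of the logarithm were not given in the sources used here. Quantile normalization removes the steps of single reads, so depth is unknown, no counting error can be given, and 7971 genes are at 0 in each library. All 10 gene positions matched a GRCm38 annotation.

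Groups were compared with limma 3.58.1 in R 4.3.3 (lmFit, then eBayes with a trend) on the deposited log2 values, with the 15 libraries of a cell type in 1 fit or all 30 for cell types and interactions. The code of the fits was run on simulated independent normal values with a known shift. That simulation had no quantile normalization, no values without signal and no effects shared between libraries, so it does not test those features. The study's methods name a paired test, but the labels do not say that a number marks a mouse or batch, so the fits are unpaired. Same-numbered libraries correlated by r from -0.16 to 0.24 in their deviations. A library correlated best with its own number in 32 of 82 checks, where 16.6 would fall there if the numbers carried nothing. Pairing is therefore not excluded, and the blocked fit is an alternative. Exact permutation tests are two-sided, over 210, 462 or 126 splits. P-values measure the spread between mice. Members, marker lists and tests were chosen with earlier results of these data known. Genes named from the other lists are those that passed in EAE-vehicle against naive microglia at a mean log2 of at least 1, up to 3 per direction. B2m, H2-D1, Fth1, Cd63, Hcst, Cd44, Gas6, Mertk and the genes named from lists in astrocytes were named after their values were seen. Alternatives were another filter on low values, no-signal values set to 0, library centring, 9 added before the logarithm, other variance models, quality weights, 2 groups only, a replicate block, and each library left out. Leaving out the libraries with under 9000 genes with signal was added after the data were seen. Protein sequences were not used here.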

Additional observations from a re-analysis of the deposited data

Results flagged for a closer look

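In 8 of 60 sets of a gene and a group, 1 mouse stood apart from the rest of its group by Dixon's test, where chance alone gives about 1 in 20. In microglia these were Cst7 in naive 4 (0.0844, without signal, others 3.49 to 3.98), Gpnmb in EAE-vehicle 4 (0.16, without signal, others 3.64 to 4.32), Gpnmb in naive 2 (0.98, others 0.13 to 0.24) and Tyrobp in naive 3 (11.25, others 10.79 to 10.85). In astrocytes they were Apoe in EAE-RIPK1inh 5 (13.93, others 11.93 to 12.23), Apoe in EAE-vehicle 4 (12.10, others 11.48 to 11.64), Tyrobp in naive 2 (2.85, others 0 to 0.22) and Gpnmb in naive 1 (0.76, others 0.13 to 0.23). For Tyrobp in astrocytes naive 2 and Gpnmb in astrocytes naive 1 all 3 other mice were without signal, and for Gpnmb in microglia naive 2 this held for 2 of the 3, so these gaps are set against values that carry no measurement.

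The EAE response differed between microglia and astrocytes by limma's interaction term for Apoe (5.24), Axl (5.15) and Itgax (2.47). Microglia naive 4 and astrocytes naive 2 are also among the libraries with under 9000 genes with signal, and the part of that in their values was not tested.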

How the results depend on the processing

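No member's called difference changed sign under any alternative run. In microglia, the count of members that passed in EAE-vehicle against naive was 5 to 6 when 1 library was left out, 5 to 6 in EAE-RIPK1inh against naive, and 0 to 0 in EAE-RIPK1inh against EAE-vehicle. The Gpnmb call in EAE-vehicle microglia was lost with quality weights (limma adjusted p = 0.0656), with 2 groups only (0.0771) and without microglia naive 4 (0.0547). In astrocytes, EAE-vehicle against naive gave 2 to 2 with 1 library left out, 1 with 9 added before the logarithm and 4 with quality weights, against 2 as reported. EAE-RIPK1inh against naive astrocytes gave 2 with only genes of mean log2 of at least 1, 1 with centred libraries and 4 with quality weights, against 0 as reported, and 0 to 1 with 1 library left out. The 1 was Spp1 without EAE-RIPK1inh 1 (5.83, limma adjusted p = 0.00427) or Apoe without EAE-RIPK1inh 5 (-1.80, 0.00754). The Spp1 value again rests on naive libraries without signal. The inhibitor comparison in astrocytes stayed at 0 to 0. Between cell types the ranges with 1 library left out were 5 to 7 in naive, 7 to 8 in EAE-vehicle and 6 to 8 in EAE-RIPK1inh mice. The EAE response differed for 3 to 5 members with 1 library left out, for 6 with only genes of mean log2 of at least 1 and for 5 with 9 added, against 3, and the Itgax call was lost with centring (0.106) and weights (0.128). The inhibitor response differed for 0 to 0. Calls of a different EAE response gained with 1 library left out were Trem2 without astrocytes naive 2 or 4, EAE-vehicle 4 or EAE-RIPK1inh 2 or 4 (0.0126 to 0.0475), Tyrobp without astrocytes EAE-vehicle 1 (0.00984) and Spp1 without astrocytes EAE-RIPK1inh 1 or 2 (0.0358 and 0.044). The causes were not tested.

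The labels number the replicates without saying what a number shares. Same-numbered libraries correlated by -0.16 to 0.24 in their deviations, over 0.1 in 5 of 41 pairs. A library correlated best with its own number in 32 of 82 checks, where 16.6 would fall there if the numbers carried nothing, and the mean r was higher for own numbers in 8 of 9 pairs of groups. This is a hint of pairing from the data, not from the design. With the replicate number as a block, the count of members was 5 in EAE-vehicle against naive microglia (Gpnmb limma adjusted p = 0.165), 5 in EAE-RIPK1inh against naive microglia (Gpnmb 0.171) and 1 in EAE-vehicle against naive astrocytes (Spp1 0.147), and 6 between the cell types of naive mice (Cst7 0.0501). No read counts were at hand to set a detection limit, and the levels of genes near 0 depend on the unnamed offset.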
